A study of Homo sapiens with 12 samples.

Results

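The 10 genes described here encode proteins on the surface of B cells, several of which are bound by antibodies used against lymphoma. They are MS4A1 (CD20), CD22, CD37, CD38, CD52, CD72, MME (CD10), CR2 (CD21), FCER2 (CD23) and FCGR2B (CD32B). The members were taken by gene symbol from a table of 46863 symbols, and all 10 were among the 16835 genes that passed the filter on low counts. RNA was measured by polyadenylated RNA sequencing in SU-DHL-4, an established human line of diffuse large B-cell lymphoma of the germinal-centre B-cell type. Cells were exposed for 72 h to DMSO, the solvent control, to 1 µM Entospletinib (Ento, an inhibitor of the kinase SYK), to 0.01 µM AZD5153 (AZD, an inhibitor of bromodomain and extra-terminal (BET) proteins), or to both agents at those doses (Ento+AZD), with 3 libraries in each of the 4 groups. The design asks how the combination differs from the control and from each single agent. A single line stands for the disease here, and the members are genes, not replicates of a condition.

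The libraries held 18121993 to 24675830 counts, of which the 10 members together took 0.384% to 0.676%. Libraries of a group differed by more than sampling noise (chi-square per degree of freedom 8.57 to 51.8), so all 12 were kept as separate samples. All 10 B-cell markers and all 8 germinal-centre markers of lists without member genes were above 17.1 CPM (counts scaled to the library size, with TMM factors) on average over the 12 libraries. The summed level of the B-cell markers lay at 4112 to 6807 CPM with DMSO, 5628 to 9269 CPM with Ento, 5697 to 8307 CPM with AZD and 7320 to 9778 CPM with Ento+AZD. Markers of T cells, NK cells, myeloid and stromal cells were low in every library, with sums of at most 7.99 CPM for 8 T-cell genes, 3.12 CPM for 7 NK-cell genes, 2.72 CPM for 8 myeloid or follicular dendritic genes and 0.183 CPM for 7 stromal or epithelial genes. CD3D, CD8B and CD28 had no count in any library. The 8 plasma-cell markers were not low as a sum, at 758 to 1044 CPM with DMSO, 939 to 1187 CPM with Ento, 787 to 1101 CPM with AZD and 847 to 1051 CPM with the combination. JCHAIN (763 CPM on average over the 12 libraries) and MZB1 (191 CPM) made up most of it, while SDC1, PRDM1, IRF4 and SLAMF7 averaged 0.0808, 0.0674, 0.124 and 0.504 CPM. The T-cell sum was 5.42 to 6.40 CPM with DMSO, 4.61 to 7.99 CPM with Ento, 1.71 to 3.58 CPM with AZD and 1.91 to 2.69 CPM with the combination, and its part in the results was not tested. In such bulk samples, fewer cells of a kind and less RNA per cell cannot be told apart.

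CD20 crosses the membrane several times and is the target of rituximab, CD52 is a short lipid-anchored glycoprotein bound by alemtuzumab, and CD37 is a tetraspanin of mature B cells. CD22, CD72 and FCGR2B are inhibitory receptors whose cytoplasmic ITIM motifs recruit the phosphatases SHP-1 or SHIP-1 and so dampen signals of the B-cell receptor, in which SYK is a central kinase. CD38 and MME are ectoenzymes: CD38 consumes NAD+ and is bound by daratumumab, while MME is a metallopeptidase used to recognize germinal-centre lymphoma. CR2 binds complement fragments and lowers the threshold of the B-cell receptor, and FCER2 is the low-affinity receptor for IgE. In human lymphoid tissue, FCER2 marks mature naive cells and its level is usually low on germinal-centre B cells.

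Sequence upstream of transcription starts is shown for FCER2 and CR2, which had the largest changes among the members, and for CD72, which had the largest decrease. The sequences are RefSeq windows of GRCh38.p14, read 5′ to 3′ on the strand of the gene, and bases covered by exons of GENCODE v44 were left out. For FCER2 a window exists at each of its 2 annotated starts (chr19:7702147-7702381 and chr19:7699480-7699691, minus strand). CR2 is shown at chr1:207454078-207454229 (plus strand) and CD72 at chr9:35618438-35618663 (minus strand). Capitals mark TGGGAA, the core bound by RBPJ, in FCER2, and GAGGAA or its complement TTCCTC, the core bound by PU.1, in CD72.
FCER2 first start: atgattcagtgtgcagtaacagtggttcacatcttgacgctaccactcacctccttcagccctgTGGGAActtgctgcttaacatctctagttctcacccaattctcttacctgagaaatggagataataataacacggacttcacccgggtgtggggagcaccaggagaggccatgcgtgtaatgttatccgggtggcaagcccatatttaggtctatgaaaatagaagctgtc
FCER2 second start: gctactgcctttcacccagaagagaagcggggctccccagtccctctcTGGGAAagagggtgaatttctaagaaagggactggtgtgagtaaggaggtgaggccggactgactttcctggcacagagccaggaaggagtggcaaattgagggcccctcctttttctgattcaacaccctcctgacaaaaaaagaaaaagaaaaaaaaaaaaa
CR2: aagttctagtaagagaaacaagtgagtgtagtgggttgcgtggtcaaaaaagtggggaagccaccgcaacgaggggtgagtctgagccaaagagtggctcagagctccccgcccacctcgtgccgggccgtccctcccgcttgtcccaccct
CD72: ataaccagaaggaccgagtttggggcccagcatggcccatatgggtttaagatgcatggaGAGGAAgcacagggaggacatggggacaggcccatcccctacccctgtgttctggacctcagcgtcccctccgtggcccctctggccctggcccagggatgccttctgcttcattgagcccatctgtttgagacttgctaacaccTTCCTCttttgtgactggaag
TGGGAA or its complement TTCCCA stood 186 bases before the first start of FCER2 and 202 bases before the second. On either strand it was present in 20.8% of the 35116 RefSeq windows of 250 bases, so its presence is a common feature of promoters. CD72 held the PU.1 core 190 and 45 bases before its start, and 23.6% of all windows held that core. In CR2 the 250-base window held an E-box (CACGTG) 45 bases before the RefSeq start, in a stretch that GENCODE annotates as exon and that is not shown; 6.34% of all windows held one. The octamer ATGCAAAT or its complement ATTTGCAT (1.63% of windows), the FOXO core GTAAACA or TGTTTAC (2.98%) and TATAAA or TTTATA (10.7%) were in none of the 13 windows of the 8 members with one. For STAT6 only the form of the site with TTC and GAA spaced by 4 bases (5.38%) was searched. That form was in 1 of 4 windows of MME. Other spacings were not searched. The sequence shown for the second start of FCER2 holds TTC and GAA at a shorter spacing (ttctaagaa), whose share of all windows was not counted. These matches describe letters only, since binding was not measured here.

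With DMSO, the members covered almost 4 orders of magnitude per length of transcript. MS4A1 was highest at 698 ± 191 CPM per kilobase (SD, n = 3), followed by CD52 at 248 ± 57.4, CD22 at 237 ± 70.5 and CD37 at 159 ± 27.3. CD52 and CD22 overlapped and could not be ordered. MME at 63.9 ± 3.18, CD38 at 47.6 ± 4.73 and CD72 at 46.4 ± 8.20 CPM per kilobase formed a middle group, in which CD38 and CD72 overlapped. FCGR2B had 10.4 ± 2.98, FCER2 1.02 ± 0.886 and CR2 0.0926 ± 0.0485 CPM per kilobase. Thus CR2 rested on 5 to 13 counts per DMSO library and FCER2 on 15 to 84, against 43351 to 73893 for MS4A1. Lengths were those of the longest transcript, and with all exons of a gene summed, MME and CD38 changed places and the other 8 members kept theirs.

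**Figure D1:**
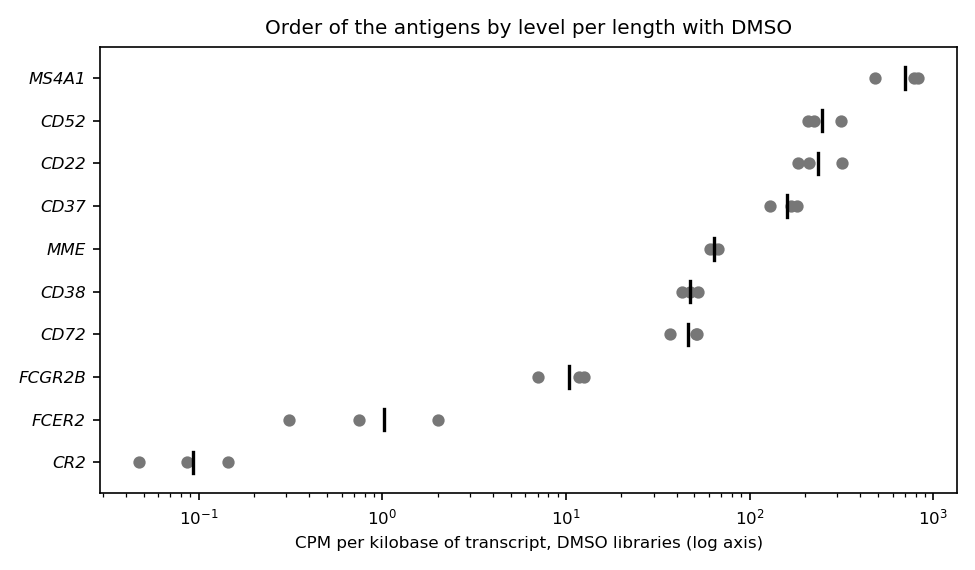
Level of each member per kilobase of its longest transcript in the 3 DMSO libraries (points, log axis), with the mean as a bar. MS4A1 lies at 479 to 826 CPM per kilobase and CR2 at 0.0475 to 0.144.

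Ento raised 5 of the 10 members and lowered none, AZD raised 2 and lowered 4, and the combination raised 5 and lowered 1. A member was called where its p stayed under 0.05 after adjustment (quasi-likelihood F-test of edgeR, Benjamini-Hochberg over 16835 genes, replicate number as a block), and every adjusted p below is from that test. The share of all tested genes called was 8.32% with Ento, 22.2% with AZD and 40% with the combination, so the 6 members called with the combination stood against the largest background. Genes called as higher made up 4.66%, 9.57% and 19.2% of all genes, and genes called as lower 3.66%, 12.7% and 20.8%. Among the 6453 genes with a mean of at least 30 CPM, the level of 8 of the members, the shares called were 8.82%, 27.5% and 46.7%. The median log2 fold change of the members was 0.31 with Ento, 0.02 with AZD and 0.33 with the combination, against 0.01 over all genes in each of the 3 comparisons. DEGs by the usual limit of an absolute log2 fold change over 1 were CR2 and FCER2 with Ento, and FCER2 alone with AZD and with the combination (1.63%, 3.19% and 8.32% of all genes). The libraries of an exposure lay wholly outside the DMSO range for CD38 and CR2 with Ento (2 of 10, beside 15.1% of all genes), for MME with AZD (1 of 10, beside 24.4%) and for CD22, CD38, CR2 and FCER2 with the combination (4 of 10, beside 39.2%). The 3 comparisons share the DMSO libraries, so their values for a member are not independent.

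These calls rest on the comparison within replicate numbers. Without the replicate block, no member was called with Ento or with AZD, CD38 alone was called with the combination, and the shares of all genes called fell to 0.214%, 1.94% and 14.2%. The adjusted p without the block is given below for each named call, singly or as a range. Values are given as CPM in the order of replicates 1, 2 and 3.

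**Figure D2:**
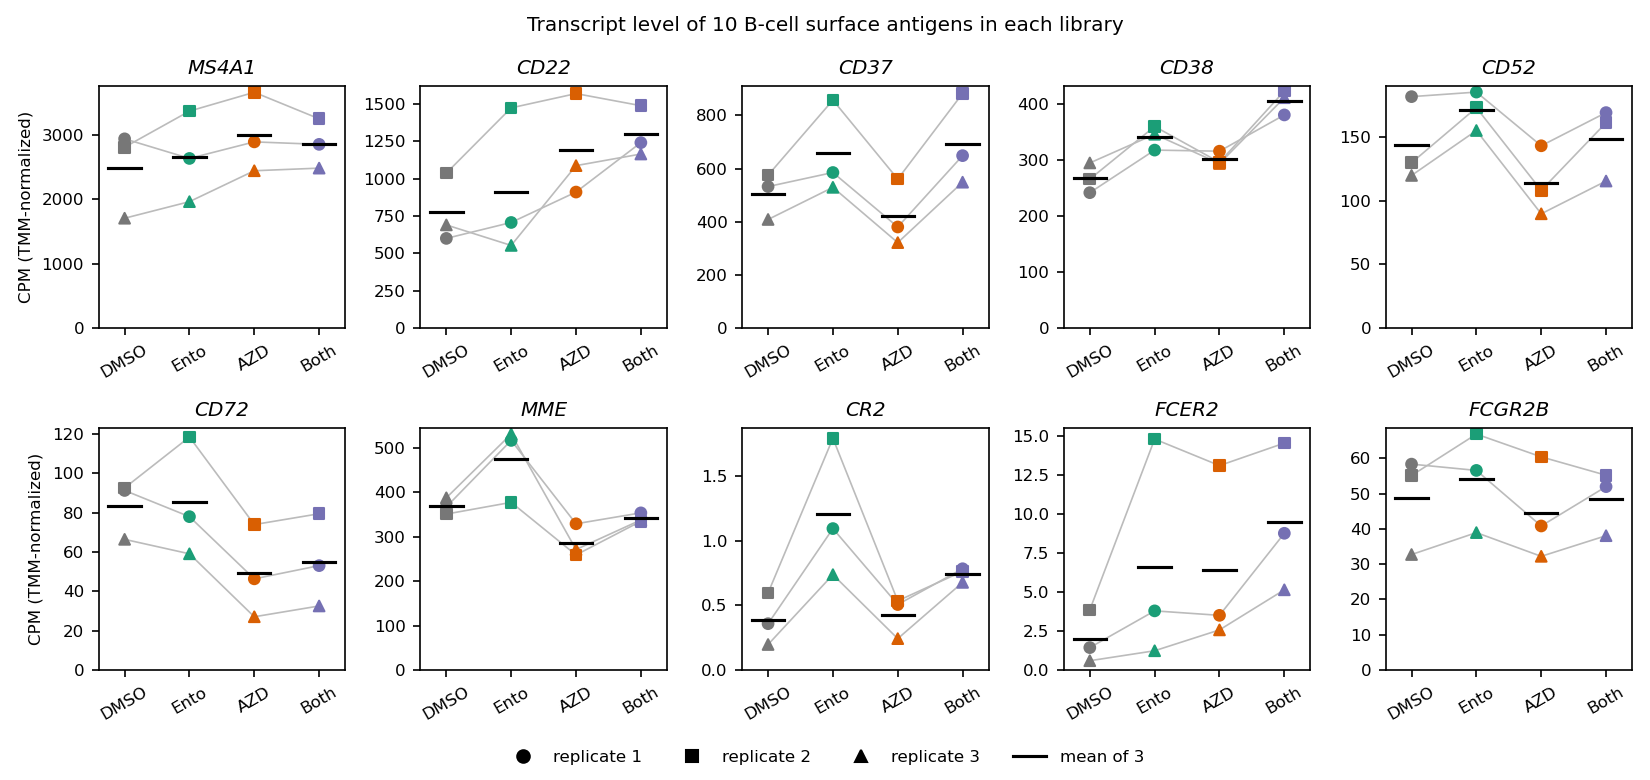
Level of each member (TMM-normalized CPM, linear axes from 0) in the 12 libraries by exposure, with libraries of the same replicate number joined by grey lines and the mean of 3 as a bar. For FCER2 the line of replicate 2 lies above the others in every exposure, while the 3 lines of CD38 lie close together.

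FCER2 rose with each exposure and had the largest change of all members. The gene lies at chr19:7688758-7702146 on the minus strand (coordinates here and below from GENCODE v44 on GRCh38). FCER2 measured 1.43, 3.85 and 0.589 CPM with DMSO, and 3.78, 14.8 and 1.23 CPM with Ento. With AZD it measured 3.50, 13.1 and 2.56 CPM, and with the combination 8.76, 14.5 and 5.13 CPM. Every single-agent library exceeded the DMSO library of its own number, although the ranges overlapped between numbers, and the combination lay above all 3 DMSO libraries. The log2 fold change was 1.61 (SE 0.30, adjusted p = 0.00589) with Ento, 1.68 (SE 0.31, adjusted p = 0.00227) with AZD and 2.48 (SE 0.30, adjusted p = 3.19e-05) with the combination. Within replicate numbers the combination was 3.78 to 8.71 times as high as DMSO. Without the block the adjusted p was 0.483, 0.308 and 0.0983. The call with Ento was also lost without Ento replicate 2 (log2 fold change 1.14, adjusted p = 0.0878), the library with the highest Ento value. Without that library, calls with Ento fell in general, from 8.32% to 2.48% of all genes and from 5 members to 1. CR2, the complement receptor, changed most with Ento (chr1:207453024-207489895, plus strand). CR2 measured 0.358, 0.595 and 0.196 CPM with DMSO and 1.09, 1.79 and 0.737 CPM with Ento, from 15 to 35 counts per Ento library. AZD gave 0.506, 0.534 and 0.242 CPM, and the combination 0.783, 0.762 and 0.677 CPM. The Ento and the combination libraries all lay above the DMSO libraries, and the AZD libraries lay within their range. The log2 fold change of CR2 was 1.65 (SE 0.31, adjusted p = 0.00584, or 0.166 without the block) with Ento and 0.97 (SE 0.34, adjusted p = 0.0348, or 0.153 without the block) with the combination. With AZD it was 0.19 (95% confidence interval -0.61 to 0.99, adjusted p = 0.762), an interval too wide at these counts to exclude a change of the size seen with the combination. Without Ento replicate 2 the adjusted p of CR2 with Ento was 0.0637. With the combination, leaving out replicate 1 or 3 of DMSO or of Ento+AZD took away the call (adjusted p 0.0940 to 0.148).

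**Figure D3:**
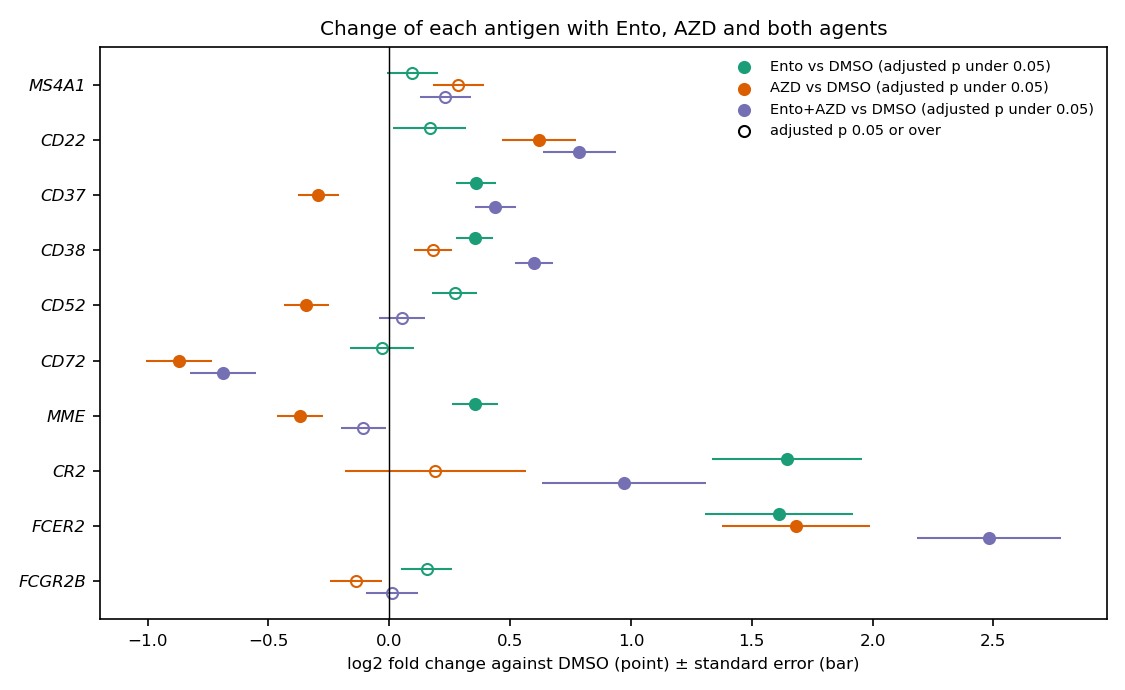
Fitted log2 fold change of each member against DMSO (point) with its standard error (bar) for Ento, AZD and Ento+AZD; filled points had an adjusted p under 0.05. FCER2 lies right of 1.6 in all 3 exposures, and CD72 lies between -0.87 and -0.69 with AZD and with the combination.

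CD72 had the largest decrease (chr9:35609982-35646810, minus strand). DMSO libraries held 91.3, 92.6 and 66.4 CPM and Ento libraries 78.0, 119 and 59.1 CPM. With AZD the values were 46.4, 74.0 and 27.0 CPM, and with the combination 53.1, 79.5 and 32.5 CPM. Each AZD and each combination library was below the DMSO library of its number, while the ranges overlapped through replicate 2. CD72 fell by 0.87 on the log2 scale with AZD (SE 0.14, adjusted p = 0.00107, or 0.276 without the block) and by 0.69 with the combination (SE 0.14, adjusted p = 0.00128, or 0.278 without the block). Both calls held whichever single library was left out. With Ento the change was -0.03 (95% confidence interval -0.32 to 0.26, adjusted p = 0.914). CD22 went the other way (chr19:35319261-35347361, plus strand). It measured 599, 1037 and 689.6 CPM with DMSO, 706, 1473 and 552 CPM with Ento, 909.7, 1569 and 1087 CPM with AZD and 1241, 1488 and 1164 CPM with the combination. AZD libraries exceeded their DMSO partners by a narrow range of 1.51 to 1.58 times, and the combination lay above all DMSO libraries. CD22 rose by 0.62 (SE 0.15, adjusted p = 0.0114, or 0.315 without the block) with AZD and by 0.79 (SE 0.15, adjusted p = 0.00110, or 0.137 without the block) with the combination. With Ento the log2 fold change was 0.17 (95% confidence interval -0.16 to 0.49, adjusted p = 0.540). The call with AZD was lost without AZD replicate 3 (adjusted p = 0.0819). FCGR2B, the third ITIM receptor (chr1:161663143-161678654, plus strand), was not called in any comparison. It had 58.4, 55.2 and 32.7 CPM with DMSO, 56.6, 66.9 and 39.0 CPM with Ento, 40.8, 60.4 and 32.2 CPM with AZD, and 52.0, 55.2 and 38.1 CPM with the combination. The log2 fold changes were 0.15, -0.14 and 0.01, and the 95% confidence interval with the combination ran from -0.22 to 0.24. FCGR2B shares near-identical sequence with FCGR2C, which was counted 168 to 390 times per library, in all 25.7% of the total of FCGR2B, and with FCGR2A (19 to 52 counts), so the split of reads among them is uncertain.

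The ectoenzymes differed from each other. CD38 (chr4:15778275-15853232, plus strand) measured 242, 266 and 295 CPM with DMSO, 318, 359.8 and 346 CPM with Ento, 316, 296 and 294 CPM with AZD, and 380.4, 423 and 411 CPM with the combination. The Ento libraries and the combination libraries lay above all DMSO libraries, and the combination also lay above all libraries of either single agent. CD38 rose by 0.35 (SE 0.08, adjusted p = 0.0140, or 0.170 without the block) with Ento and by 0.60 (SE 0.08, adjusted p = 5.85e-05) with the combination. The latter was the one call against DMSO that held without the block (adjusted p = 0.00342), and it held whichever single library was left out. With AZD the log2 fold change was 0.18 (95% confidence interval 0.01 to 0.35, adjusted p = 0.115). The call of CD38 with Ento was lost without Ento replicate 1 or 2 (adjusted p = 0.0534 and 0.0972). MME (chr3:155024124-155183704, plus strand) moved in opposite directions with the single agents. It measured 368, 351 and 388 CPM with DMSO, 517, 378 and 532 CPM with Ento, 329, 259 and 271 CPM with AZD, and 354, 335 and 338 CPM with the combination. The AZD libraries lay below all DMSO libraries, and Ento replicate 2 was the one Ento library within the DMSO range. MME rose by 0.36 (SE 0.09, adjusted p = 0.0322, or 0.301 without the block) with Ento and fell by 0.37 (SE 0.09, adjusted p = 0.0139, or 0.146 without the block) with AZD. In the combination the log2 fold change was -0.11 (95% confidence interval -0.31 to 0.09, adjusted p = 0.392). The call with Ento was lost in 4 of 6 fits that left out a library (adjusted p up to 0.158), and the call with AZD without AZD replicate 2 or 3 (0.0596 and 0.111).

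CD37, another antibody target, also moved in opposite directions with the single agents. CD37 (chr19:49335171-49343335, plus strand) measured 532, 575 and 408 CPM with DMSO, 585, 858 and 529 CPM with Ento, 380.2, 561 and 321 CPM with AZD, and 649, 883 and 549 CPM with the combination. All groups overlapped, yet every Ento and combination library exceeded, and every AZD library fell short of, the DMSO library of its number. CD37 rose by 0.36 (SE 0.08, adjusted p = 0.0185, or 0.583 without the block) with Ento, fell by 0.29 (SE 0.08, adjusted p = 0.0238, or 0.569 without the block) with AZD, and rose by 0.44 (SE 0.08, adjusted p = 0.00105, or 0.207 without the block) with the combination. The first call was lost in 3 and the second in 4 of 6 fits that left out a library, with an adjusted p of up to 0.112 and 0.130, and the third held in all 6. TEAD2, on the opposite strand, shares 319 bases of exon with CD37, and the use of the strand in counting is not given in the sources used here. TEAD2 averaged 7.55 CPM over the 12 libraries, with log2 fold changes of 0.74 (adjusted p = 0.00656), -0.42 (0.0607) and 0.48 (0.0179) in the same order of exposures (adjusted p = 0.387, 0.454 and 0.281 without the block). CD52 (chr1:26317958-26320523, plus strand) was called with AZD only among the comparisons against DMSO. Its values were 182, 130.0 and 120.0 CPM with DMSO, 186, 173 and 155 CPM with Ento, 143, 108 and 89.9 CPM with AZD and 169.5, 162 and 116 CPM with the combination. CD52 fell by 0.34 with AZD (SE 0.09, adjusted p = 0.0189, or 0.361 without the block), in 3 of 3 replicate numbers, and the call was lost in 4 of 6 fits without a library (adjusted p up to 0.117). With Ento its log2 fold change was 0.27 (95% confidence interval 0.07 to 0.47, adjusted p = 0.0866), and with the combination 0.05 (-0.15 to 0.25, adjusted p = 0.683).

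MS4A1, the member with the highest level, was not called in any comparison (chr11:60455846-60470752, plus strand). Its libraries held 2937, 2807 and 1703 CPM with DMSO and 2632, 3367 and 1961 CPM with Ento. AZD libraries held 2889, 3659 and 2441 CPM, and combination libraries 2851, 3248 and 2482 CPM. In each exposed group replicate 1 lay below its DMSO partner and replicates 2 and 3 above it. The log2 fold change was 0.10 (95% confidence interval -0.13 to 0.32, adjusted p = 0.622) with Ento, 0.29 (0.06 to 0.51, adjusted p = 0.0637) with AZD and 0.23 (0.01 to 0.46, adjusted p = 0.0923) with the combination. These intervals exclude a change of CD20 transcript by a log2 fold change of 1 or more in either direction. Without DMSO replicate 1, MS4A1 was called with AZD (0.44, adjusted p = 0.00506) and with the combination (0.38, adjusted p = 0.00450), and it was also called with AZD without AZD replicate 1.

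The combination differed from Ento in 5 members and from AZD in 3. Compared with Ento, 3 members were higher and 2 lower with the combination (20.4% of all genes called, 8.27% higher and 12.2% lower; no member without the block, adjusted p 0.0952 to 0.758 for these 5). CD22 was higher by 0.62 (adjusted p = 0.0112), CD38 by 0.25 (0.0378) and FCER2 by 0.87 (0.0314), and CD72 was lower by -0.66 (0.00438) and MME by -0.46 (0.00401) on the log2 scale. The groups did not overlap for CD38 and MME (2 of 10, beside 23.2% of all genes). The calls of CD72 and MME held whichever single library was left out, CD38 lost its call in all 6 such fits (adjusted p up to 0.152), and CD22 and FCER2 lost theirs in 4 of 6 (up to 0.0819 and 0.157). Compared with AZD, CD37 was higher with the combination by 0.73 (SE 0.08, adjusted p = 0.000367), CD38 by 0.42 (0.00540) and CD52 by 0.40 (0.0165), and no member was lower (11.9% of all genes called, 5.85% higher; no member without the block, adjusted p 0.139 to 0.471 for these 3). The first pair of calls held without any single library, and that of CD52 was lost in 3 of 6 fits (up to 0.0837). Libraries of the combination lay above all AZD libraries for CD38, MME and CR2 (3 of 10, beside 17.1% of all genes). In libraries of the same number, the combination held 1.57 to 1.71 times as much CD37 as AZD.

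The single agents set against each other differed in 5 of 10 members, all of them higher with Ento (14.7% of all genes called, 8.99% higher). CR2 was higher with Ento than with AZD by a log2 fold change of 1.46 (SE 0.31, adjusted p = 0.00628), CD72 by 0.84 (SE 0.14, 0.000880), MME by 0.72 (SE 0.09, 0.000153), CD37 by 0.65 (SE 0.08, 0.000148) and CD52 by 0.61 (SE 0.09, 0.000521). All 5 calls held whichever single library was left out, and that of MME also held without the block (adjusted p = 0.0117), where the other 4 were lost (0.0910 to 0.320). The groups did not overlap for CD38, CD52, MME and CR2 (4 of 10, beside 21.5% of all genes). FCER2, which rose with each agent, differed between them by -0.07 (95% confidence interval -0.65 to 0.50, adjusted p = 0.897). MS4A1, CD22, CD38 and FCGR2B did not pass the test either (adjusted p = 0.247, 0.0614, 0.158 and 0.0883).

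Whether the effect of an agent depended on the other was tested as an interaction, the change with the combination minus the sum of the single changes. No member was called (0 of 10, beside 0% of all 16835 genes). At an unadjusted p under 0.05 there were 1 member, CD37, and 1652 genes (9.81%), and DESeq2 called 8 genes and no member. For CD37 the interaction was 0.37 on the log2 scale (95% confidence interval 0.12 to 0.63, unadjusted p = 0.00722, adjusted p = 0.444): Ento raised CD37 by 0.36 alone and by 0.73 when added to AZD. It reached an adjusted p of 0.0458 without DMSO replicate 2 alone among the 12 fits that left out a library. In that fit calls of the interaction rose over all genes, to 213 of 17260 (1.23%), and 3066 genes had an unadjusted p under 0.05. FCER2 and CR2 had negative interactions of -0.81 (-1.68 to 0.05, adjusted p = 0.526) and -0.87 (-1.88 to 0.15, adjusted p = 0.564), and the intervals reach from no interaction to one as large as the single effects. For CD22 the interaction was 0.00 (-0.46 to 0.46, adjusted p = 1.00).

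**Figure D4:**
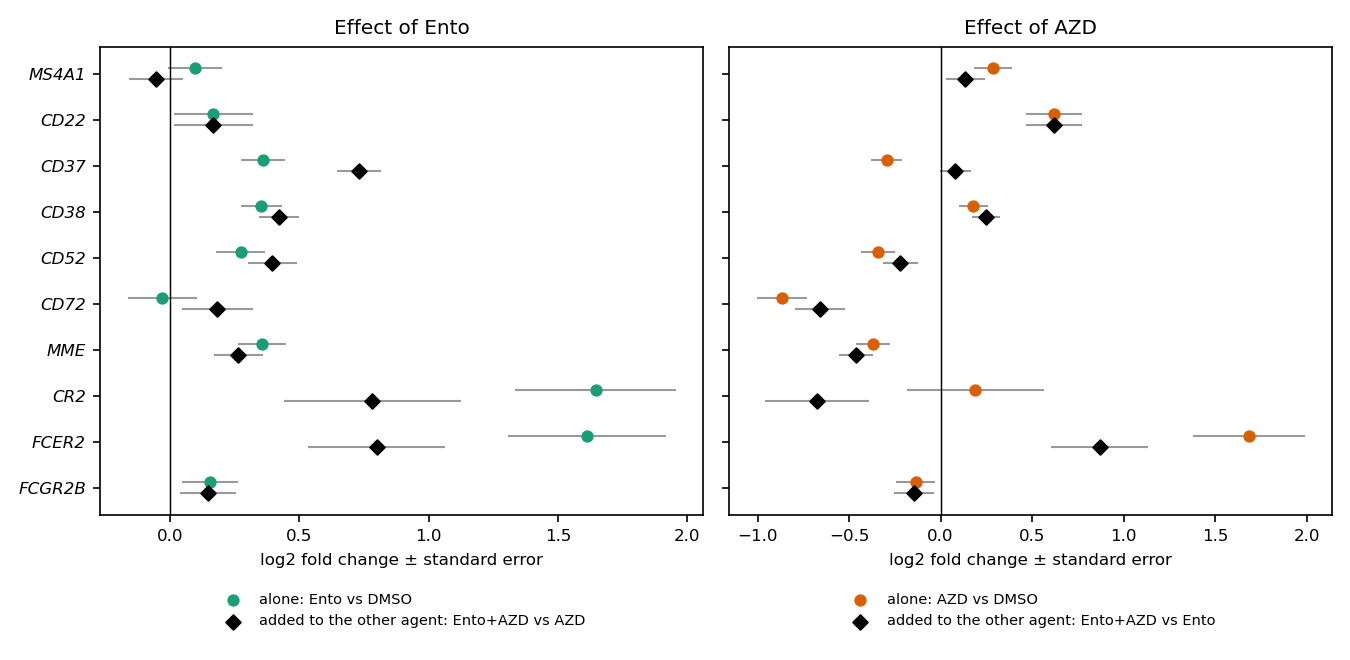
Log2 fold change (± standard error) of each member with Ento (left) and with AZD (right), alone against DMSO (circles) and added to the other agent (diamonds). CD37 has the pair of points farthest apart relative to their error, at 0.36 and 0.73 for Ento and at -0.29 and 0.08 for AZD.

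Members differed widely in how far they followed the replicate number, fitted over all 4 groups. FCER2 spread 5.36-fold between the highest and the lowest number, above 99.9% of all tested genes. CD72 spread 2.07-fold, CR2 2.0-fold, FCGR2B 1.68-fold, CD22 1.67-fold, CD37 1.59-fold, MS4A1 1.53-fold and CD52 1.44-fold. Only MME (0.23 on the log2 scale) and CD38 (0.10) lay under the median spread of all genes, 0.30. CD38 and MME are also the members of the only calls that held without the block. The 2 observations are not independent, since without the block the spread between replicate numbers counts as error. Replicate 3 was lowest for FCER2, CD72, CR2, FCGR2B, CD37, MS4A1 and CD52. What a replicate number stood for is not given in the labels, and the source of this spread was not tested.

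**Figure D5:**
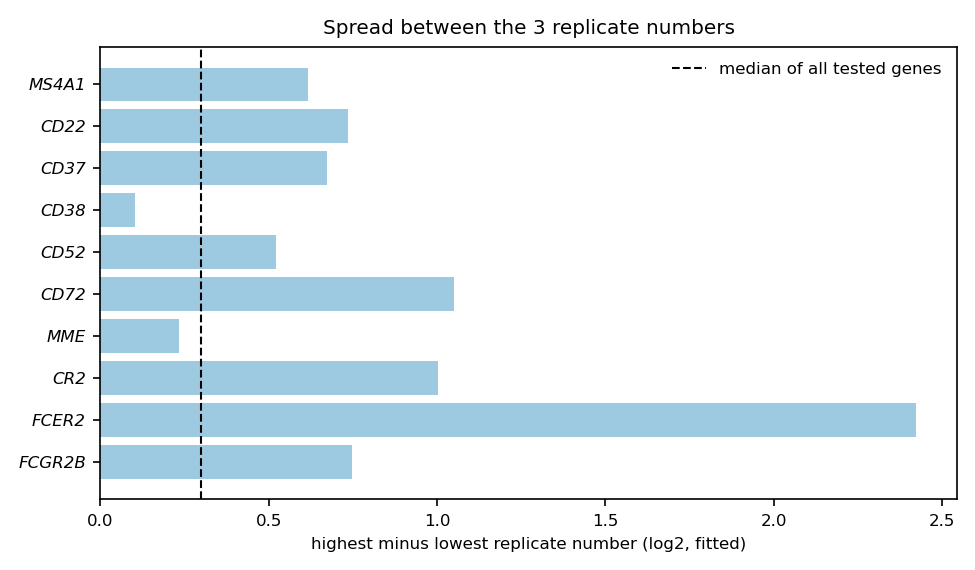
Spread of each member between the 3 replicate numbers (highest minus lowest fitted effect, log2), with the median of all tested genes, 0.30, as a dashed line. FCER2 reaches 2.42 and CD38 0.10.

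Related genes were counted over lists that hold no member, and some genes stand in more than 1 list. Of the 125 genes of these lists that passed the filter, 32 were called with Ento, 48 with AZD and 65 with the combination. Without the replicate block 2, 4 and 24 of these calls held. Of all tested genes 8.32%, 22.2% and 40% were called, and 0.214%, 1.94% and 14.2% without the block. For the counts of each list below, 4.66%, 9.57% and 19.2% of all genes were called as higher. Those called as lower were 3.66%, 12.7% and 20.8%. Of 55 other B-cell surface antigens, 45 passed the filter; 12 rose and 3 fell with Ento, 5 rose and 15 fell with AZD, and 15 rose and 9 fell with the combination. Their median log2 fold change was 0.27, -0.08 and 0.02. CD81, a tetraspanin that associates with CR2, had log2 fold changes of 0.01, 0.00 and -0.05 with Ento, AZD and the combination and was not called. The integrin chain ITGA4 fell by 0.76 and the SLAM-family receptor CD84 by 1.89 on the log2 scale with the combination (adjusted p = 7.73e-06 and 1.20e-05), and both fell with AZD. All 4 of these calls held without the block (adjusted p = 0.00204 and 0.00116 with the combination, 0.0477 and 0.0165 with AZD). Of 18 further targets of antibodies, conjugates or CAR T cells, 12 passed the filter, of which 4 rose with Ento, 2 rose and 2 fell with AZD, and 6 rose and 2 fell with the combination. CD40 and CD74, an activating receptor and the invariant chain of MHC class II, rose with the combination by 0.82 and 0.78 (adjusted p = 4.47e-05 and 0.000128, or 0.0573 and 0.0707 without the block).

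Of 17 other ITIM receptors 13 passed the filter. Of these, 3 rose with Ento, 4 fell with AZD, and 6 rose and 1 fell with the combination. The shares of all genes called were 8.32%, 22.2% and 40%. FCRL3, an Fc receptor-like protein, rose from 27.5 ± 8.74 to 70.8 ± 9.88 CPM with Ento (log2 fold change 1.40, SE 0.12, adjusted p = 2.51e-05, or 0.0582 without the block) and to 44.5 ± 9.66 CPM with the combination (0.72, adjusted p = 0.000488, or 0.0803 without the block). LILRB1 and LILRB2 rose with the combination by 0.52 and 0.59 (adjusted p = 0.000217 and 0.00132, or 0.0839 and 0.0692 without the block). All 12 effectors of these receptors passed the filter, of which 2 rose with Ento, 1 rose and 4 fell with AZD, and 2 rose and 4 fell with the combination. INPP5D (SHIP-1) rose by 0.26 with the combination (adjusted p = 0.0217, or 0.371 without the block), and PTPN6 (SHP-1) fell by 1.08 (adjusted p = 0.00469, or 0.177 without the block). Of 14 other Siglecs, the relatives of CD22, 5 passed, and 2 of them fell with AZD and none was called with Ento or the combination.

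Among relatives by structure, 15 of 32 other tetraspanins passed the filter. Of these, 2 fell with Ento, 1 rose and 3 fell with AZD, and 4 rose and 7 fell with the combination. Beside these and the later counts, 8.32%, 22.2% and 40% of all genes were called. TSPAN18 and CD63 fell with the combination by 0.81 and 0.57 on the log2 scale (adjusted p = 0.000117 and 0.000124), and TSPAN3 rose by 0.67 (adjusted p = 0.000159). These 3 calls held without the block (adjusted p = 0.00980, 0.00520 and 0.0474). Of 17 MS4A relatives 2 passed: MS4A7 rose with AZD by 0.90 (adjusted p = 0.00673) and with the combination by 0.58 (0.0351), and MS4A14 rose with AZD by 0.76 (0.0351). None of these 3 calls held without the block (adjusted p = 0.314, 0.439 and 0.333). Of 22 Fc and complement receptors 12 passed, of which 2 rose with Ento, 3 fell with AZD, and 3 rose and 1 fell with the combination. Of 5 complement regulators 4 passed; none was called with Ento, 1 rose and 2 fell with AZD, and 1 fell with the combination. With AZD, CD59, which blocks the membrane attack complex, rose by 0.34 (adjusted p = 0.0239, or 0.293 without the block). CD55, which speeds the decay of complement convertases, fell by 0.50 (0.0145, or 0.286 without the block) and CSMD1 by 1.10 (0.0463, or 0.127 without the block). With the combination, CSMD1 fell by 1.43 (adjusted p = 0.0105, or 0.0324 without the block), from 0.920 ± 0.191 to 0.339 ± 0.172 CPM, and the log2 fold change of CD59 was 0.15 (adjusted p = 0.253). Of 16 other ectoenzymes and adenosine receptors 8 passed; 1 rose and 1 fell with Ento, 1 fell with AZD, and 2 rose and 1 fell with the combination. ADA, adenosine deaminase, fell from 13.7 ± 1.57 to 4.09 ± 0.246 CPM with the combination (adjusted p = 6.08e-06, or 0.00165 without the block). ENPP3, an ectonucleotide pyrophosphatase, rose with the combination by 0.65 (adjusted p = 0.000183, or 0.0242 without the block), and the adenosine receptor ADORA2B rose by 1.03 (0.0367, or 0.265 without the block), from 0.468 ± 0.237 to 0.938 ± 0.184 CPM.

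The ligand list held 5 genes, of which 3 passed and all 3 rose with the combination (19.2% of all genes were called as higher). ST6GAL1, the enzyme that makes the sialic acid ligand of CD22, rose by 0.56 (adjusted p = 7.03e-05), PECAM1 (CD31), a ligand of CD38, by 0.81 (0.00261), and SEMA4D (CD100), a ligand of CD72, by 0.41 (0.00857). Without the block the call of ST6GAL1 held (adjusted p = 0.00978), and those of PECAM1 and SEMA4D were lost (0.286 and 0.265). Among 22 transcription factors known to act on such genes in B cells 20 passed. Of these, 8 rose with Ento, 5 rose and 3 fell with AZD, and 10 rose and 2 fell with the combination. The shares of all genes called were 8.32%, 22.2% and 40%. BACH2, a repressor of plasma-cell fate, rose from 115 ± 35.2 CPM with DMSO to 292 ± 57.2 with Ento (1.36, adjusted p = 4.82e-06) and 287 ± 64.6 with the combination (1.33, adjusted p = 1.82e-06), and fell by 0.38 with AZD (adjusted p = 0.0146). Of these calls of BACH2, that with the combination held without the block (adjusted p = 0.0137), and those with Ento and AZD were lost (0.0729 and 0.483). IRF8 rose with each exposure, by 0.34, 0.48 and 0.65 (adjusted p = 0.0163, 0.00130 and 3.06e-05), as did FOXO1, by 0.30, 0.22 and 0.43 (0.0222, 0.0475 and 0.000433). Without the block IRF8 kept its call with the combination (adjusted p = 0.00742) and lost those with Ento and AZD (0.292 and 0.0614), and FOXO1 lost all 3 (0.431, 0.389 and 0.0570).

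For each of the 8 members called against DMSO, the tested genes with at least 5 CPM (10622 candidates) whose log2 CPM followed it most closely over the 12 libraries were found after the mean of each replicate number was removed. FCER2 was followed by ABR (r = 0.988) and IRF8 (r = 0.987), and CR2 by ABCA6 (r = 0.970) and C1orf220 (r = 0.955). CD37 was followed by HIP1R (r = 0.985) and OR13A1 (r = 0.982), CD38 by PTPRE (r = 0.984) and BAZ2B (r = 0.979), and MME by RASGEF1B (r = 0.973) and IFNG-AS1 (r = 0.968). CD22 was followed by NEK6 (r = 0.979) and CLEC16A (r = 0.977), CD52 by PTGER4 (r = 0.975) and LAMP3 (r = 0.963), and CD72 by GABPA (r = 0.979) and DRAM2 (r = 0.975). Each is the highest of many correlations over libraries that share 4 exposures, so these are descriptions only. With replicate means kept, 4 of the 16 genes remained the closest or second closest of their member: HIP1R and OR13A1 for CD37, ABCA6 for CR2 and NEK6 for CD22.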

How the data were processed

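RNA of SU-DHL-4 cells was measured in 4 groups of 3 libraries, grouped by the sample titles. The authors joined reads over lanes and trimmed them (CutAdapt, run by TrimGalore). The study's methods name Rsubread for alignment to GRCh38.p13 and for the counts per gene. The submitters' processing notes list bcl2fastq 2.19 and both GRCh38.p13 and hg19, with no role for either build, so the build behind the counts was not settled here. Gene positions are from GENCODE v44 on GRCh38 and entered no test. Settings of the counting, such as strand and multi-mapping reads, are not given in the sources used here. The deposited counts are whole numbers for 46863 gene symbols without normalization. A deposited table of log2 values made from them was not used.

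The analysis used R 4.3.3 with edgeR 4.0.16, which loads limma 3.58.1. Genes were filtered by filterByExpr within groups (minimum count 10, minimum total 15), libraries were scaled by TMM, and treatment group and replicate number were terms of a model without intercept over all 12 libraries. The study's methods name batch as a covariate, which was taken here as the replicate number. Contrasts were tested by the quasi-likelihood F-test with Benjamini-Hochberg adjustment over 16835 genes, and a call is an adjusted p under 0.05. The script was tested on simulated data. Totals of 18121993 to 24675830 counts make 1 count worth 0.0393 to 0.0564 CPM, which limits the precision for CR2 and FCER2. Confidence intervals are those of the fitted fold changes.

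Replicate numbers are those of the sample titles. Deviations from group means correlated at 0.213 to 0.703 in all 18 pairs of libraries with the same number in different groups. The numbers were therefore taken to pair the libraries, and the block was kept. In 36 pairs with different numbers the correlations were -0.627 to 0.325. Deviations within a group cancel, so positive values at the same number pull those at different numbers down. The second range is therefore not separate support for the pairing. The series describes biological replicates of a single line. With the block, p-values rest on the spread left between these samples after differences between replicate numbers are removed.

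The members and gene lists were chosen with earlier results of these data known. Named are all 10 members, for each called member the 2 genes of highest correlation, and from each list the genes with the lowest adjusted p with the combination or with a role described beside a member; 1 gene of these lists is not reported here. TEAD2, FCGR2A and FCGR2C are named as overlapping or near-identical genes. Alternatives were no replicate block, RLE size factors, no filter, libraries of the 2 compared groups only, DESeq2 1.42.0 and leaving out each library. RefSeq promoter windows matched 8 of the 10 members.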

Additional observations from a re-analysis of the deposited data

How the results depend on the processing

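No called value of a member changed its direction under any alternative run. Of the 30 calls over 6 comparisons, 2 were kept and 28 lost without the replicate block. Members called fell to 0 with Ento (0.214% of all genes called), 0 with AZD (1.94%) and 1 with the combination (14.2%). They fell to 0 for the combination against Ento (1.22%), 0 against AZD (0.101%) and 1 for Ento against AZD (3.2%). All 30 were kept with RLE size factors and without the filter on low counts. The latter added 8 calls. It moved the members called to 5 for the combination against AZD (8.81% of all genes called) and 8 for Ento against AZD (10.1%). With the libraries of the 2 compared groups only, 26 calls were kept, 4 lost and 6 added. This gave 3 members with Ento (8.2% of all genes called), 5 for the combination against AZD (17.9%) and 8 for Ento against AZD (24.4%). DESeq2 kept 28 calls, lost 1 (CR2 with the combination, adjusted p = 0.115), gave no adjusted p for CR2 with Ento, and added 3, MS4A1 with AZD among them (adjusted p = 0.0402). Leaving out a library in turn kept 137 and lost 43 of 180 calls and added 9. Members called were then 1 to 4 with Ento (2.48% to 7.73% of all genes called), 2 to 6 with AZD (7.26% to 20.6%) and 5 to 6 with the combination (28.3% to 37.2%). They were 2 to 5 for the combination against Ento (8.13% to 17.1%) and 2 to 3 against AZD (3.44% to 7.33%). For Ento against AZD they were 5 to 6 (6.67% to 11.1%), and for the interaction 0 to 1 (0% to 1.23%). The arm left with fewer libraries was assumed to vary like the others.

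Signs changed only for values that were not called. Without the block these were CD72 with Ento (0.030), FCGR2B with the combination (-0.0084), FCER2 in Ento against AZD (0.052) and the interaction of CD22 (-0.11), which was -0.00054 without the filter; the cause was not tested. Leaving out a library changed 28 of 300 such signs. With 1 library left out, log2 fold changes of such values ranged from -0.012 to 0.25 for MS4A1, -0.081 to 0.38 for CD22 and -0.24 to 0.12 for CD72 with Ento, and from -0.042 to 0.12 for CD52 and -0.059 to 0.14 for FCGR2B with the combination. They ranged from -0.16 to 0.00021 for MS4A1 in the combination against AZD and from -0.54 to 0.16 for FCER2 in Ento against AZD. Interactions ranged from -0.21 to 0.24 for CD22, -0.0027 to 0.16 for CD38, -0.21 to 0.0017 for MME and -0.14 to 0.11 for FCGR2B. Order by level kept 8 of 10 places with summed exon lengths, and 4 of 16 closest genes remained when replicate means were kept. Depth limits CR2 (5 to 35 counts per library) and, with DMSO, FCER2.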
